A study of Homo sapiens with 4 samples.

Results

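The expression of 10 genes of the NRF2, thioredoxin and glutathione redox system was followed in GBM8401 cells and in a temozolomide-resistant line derived from them. The genes were taken by symbol from a table of 58219 Ensembl gene IDs: NFE2L2, KEAP1, NQO1, HMOX1, GCLC, GCLM, TXNRD1, TXN, SRXN1 and GSR, and all 10 were measured. GBM8401 is an established human malignant glioma line. Temozolomide (TMZ) is the DNA-methylating drug given against glioblastoma. The parental group held 2 libraries of GBM8401 cells, and the resistant group held 2 libraries of cells that had been kept in 200 µM TMZ for 140 days with regular changes of medium. The labels give a single resistant line, and whether the drug was present at harvest is not given in the sources used here. Replicates are called biological in the labels, but they were not tied to separately derived lines, so the p-values measure the spread between these cultures.

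NRF2, the product of NFE2L2, is a transcription factor that is normally bound by KEAP1 and handed to the CUL3 ubiquitin ligase for degradation. Oxidants and electrophiles modify KEAP1, NRF2 then accumulates, pairs with a small MAF protein and binds antioxidant response elements in its target genes. Those targets include the quinone reductase NQO1, the heme-degrading HMOX1, both subunits of the enzyme that starts glutathione synthesis (GCLC and GCLM), thioredoxin (TXN) and its reductase (TXNRD1), sulfiredoxin (SRXN1) and glutathione reductase (GSR). NRF2 is regulated largely at the level of protein stability, which RNA sequencing does not measure.

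Promoter letters are shown first, because NRF2 acts through antioxidant response elements, whose core can be read near the listed start sites of some of these genes. The core searched was TGACNNNGC, on both strands, in the 250 bases before each start site listed by RefSeq (GRCh38.p14). The table held 11 such windows for 8 of the 10 genes, with none for HMOX1 or GSR. A match was found in 4 of the 11 windows, belonging to GCLM, TXNRD1 and KEAP1, and in 10.9% of all 35116 windows of the table. Each match is shown with 10 bases on either side, read along the strand of the gene, with the match in capitals. In 3 of the 5 matches the capitals are the reverse complement of the motif.
GCLM, 34 bases before the start, chr1:93909446-93909474, minus strand: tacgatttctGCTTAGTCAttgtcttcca
TXNRD1 upstream start, 99 bases before it, chr12:104215670-104215698, plus strand: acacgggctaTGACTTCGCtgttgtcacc
TXNRD1 downstream start, 102 bases before it, chr12:104286920-104286948, plus strand: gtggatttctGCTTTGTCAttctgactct
KEAP1 downstream start, 54 bases before it, chr19:10502807-10502835, minus strand: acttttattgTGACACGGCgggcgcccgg
KEAP1 downstream start, 31 bases before it, chr19:10502784-10502812, minus strand: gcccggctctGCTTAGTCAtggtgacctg
The 9 letters in the GCLM window are identical to those of the second KEAP1 match. In the test given below, GCLM was called lower, TXNRD1 was called higher and KEAP1, with 2 matches, was not called. SRXN1 was called lower with no match in its window. Bases outside these windows were not searched, and whether matches go with the calls was not tested. These are matches of letters only, and binding of NRF2 was not measured.

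Of the redox genes 1 rose, 3 fell and 6 did not pass the test. TXNRD1 was 1.5-fold higher in resistant cells, while GCLM was 1.58-fold, SRXN1 1.36-fold and GSR 1.25-fold lower. NFE2L2, KEAP1, NQO1, HMOX1, GCLC and TXN did not pass. A gene was counted as changed at an adjusted p under 0.05 in limma, over all 16132 genes tested, and each of the 10 genes passed the filter on low values. With 4 of 10 changed, the share of 40.0% stood beside 37.1% of all genes tested. Among all genes 16.2% were higher and 20.9% were lower, against 1 and 3 of the 10. The median log2 fold change of the 10 was −0.15, and that of all genes tested was −0.02. Fewer cells expressing a gene and less RNA per cell cannot be told apart in such bulk libraries. In 9 of the 10 genes the libraries of the groups did not overlap, and this was so for 68.6% of all genes.

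**Figure D1:**
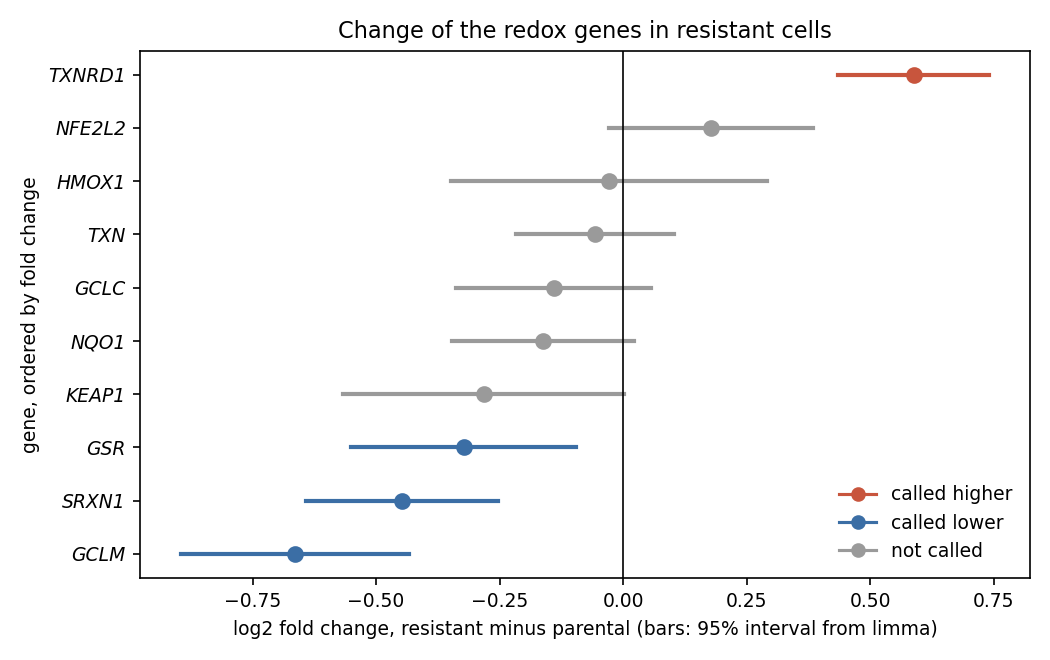
Log2 fold change (resistant minus parental) of each redox gene, with points for the limma estimate and bars for its 95% interval. TXNRD1 lies at 0.59, and GCLM, SRXN1 and GSR lie at −0.66, −0.45 and −0.32 with intervals below 0.

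TXNRD1 encodes the cytosolic selenoenzyme that uses NADPH to reduce thioredoxin. Its deposited value, in scaled fragments, was 10649 and 10765 in parental cells, against 15714 and 16489 in resistant cells. Both resistant libraries were high, with a gap to the parental pair several times wider than the distance within either group. The means were 10707 ± 82.0 and 16101 ± 548 (SD, n = 2), which gave a log2 fold change of 0.59 ± 0.07 (SE; limma adjusted p = 0.000444) with a 95% interval of 0.43 to 0.74. The call held without each library in turn. TXNRD1 (ENSG00000198431) spans chromosome 12, 104215779 to 104350305, on the plus strand of GRCh38. A ribosomal protein pseudogene within it on the same strand, RPL18AP3, had 929 and 966 against 1161 and 1141 scaled fragments, and an antisense RNA, AC089983.1, had 80.5 and 76.5 against 212 and 208.

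TXN, the thioredoxin that TXNRD1 reduces, had 5699 and 5511 scaled fragments in parental cells, compared with 5353 and 5425 in resistant cells. The groups lay close together without overlap. Its log2 fold change was −0.06 ± 0.07 (limma adjusted p = 0.573), with an interval of −0.22 to 0.10, and its sign turned when libraries were scaled to their totals or by quantiles (0.04 and 0.08). SRXN1, which restores overoxidized peroxiredoxins, had 1411 and 1388 in parental against 1051 and 1003 in resistant libraries. Both pairs were tight, with means of 1400 ± 16.4 and 1027 ± 34.1 (SD, n = 2), and lay far apart. The log2 fold change of SRXN1 was −0.45 ± 0.08 (limma adjusted p = 0.00438), and the call held without each library. SRXN1 (ENSG00000271303) lies on chromosome 20, 646615 to 653370, minus strand.

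Because the deposited scaling of the libraries affects every fold change, ratios of 2 genes within a library were also taken, which a single factor per library does not alter. The ratio of TXNRD1 to TXN was 1.87 and 1.95 in parental against 2.94 and 3.04 in resistant libraries. TXNRD1 over SRXN1 was 7.54 and 7.75 against 14.9 and 16.4, so the mean ratio in resistant cells was 2.05 times the parental one. TXNRD1 over GCLM was 7.49 and 6.50 against 16.7 and 16.6, or 2.38 times. These 3 ratios were separate between the groups, which for TXNRD1 over SRXN1 and over GCLM follows from the opposite calls of their genes. An exact permutation test of 2 against 2 libraries cannot go below a two-sided p of 0.333, so the ratios are given without a test.

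**Figure D2:**
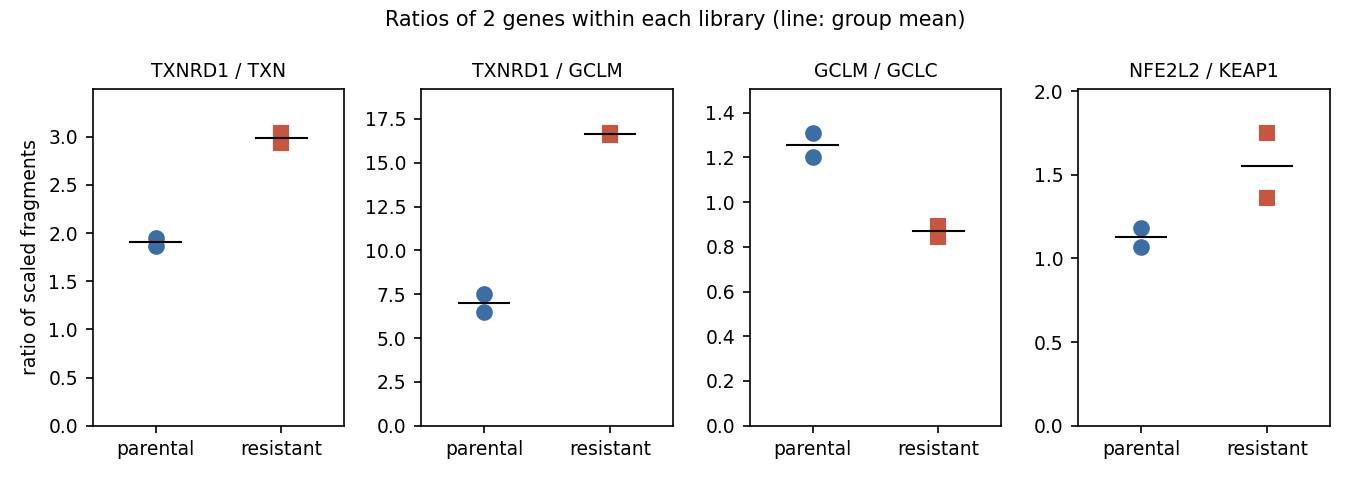
Ratio of the scaled fragments of 2 genes within each library, with circles for parental and squares for resistant libraries and a line at the group mean. The groups do not overlap in any of the 4 panels, and the widest separation is in TXNRD1 over GCLM, at 7.49 and 6.50 against 16.7 and 16.6.

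Glutathione synthesis begins with glutamate-cysteine ligase, made of the catalytic subunit GCLC and the modifier subunit GCLM, which lowers the enzyme's sensitivity to feedback by glutathione. GCLM had 1422 and 1655 scaled fragments in parental libraries, against 940 and 996 in resistant ones. All resistant values lay below the lower parental value. The means were 1538 ± 165 and 968 ± 39.9 (SD, n = 2), which gave a log2 fold change of −0.66 ± 0.10 (SE; limma adjusted p = 0.00157) with an interval of −0.90 to −0.43. Left without parental replicate 1 it was −0.77 and without parental replicate 2 it was −0.555, and it passed both times. GCLM (ENSG00000023909) lies on chromosome 1, 93885205 to 93909456, minus strand.

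GCLC had 1189 and 1268 in parental against 1111 and 1116 in resistant libraries, a log2 fold change of −0.14 ± 0.09 (limma adjusted p = 0.24) with an interval of −0.34 to 0.06. The groups did not overlap, and the resistant pair was tight (1113 ± 3.68, SD, n = 2), just below the lower parental value. The ratio of GCLM to GCLC was 1.2 and 1.31 in parental against 0.846 and 0.893 in resistant libraries, and the resistant mean was 0.695 of the parental mean. GSR, which regenerates reduced glutathione with NADPH, had 1160 and 1070 against 942 and 842 scaled fragments. Its log2 fold change was −0.32 ± 0.10 (limma adjusted p = 0.034). This was the least stable of the 4 calls. Without parental replicate 1 the adjusted p of GSR was 0.113, without resistant replicate 1 it was 0.0602 and without resistant replicate 2 it was 0.244. With the libraries scaled to their totals it was 0.114, and with TMM factors 0.0501. GSR (ENSG00000104687) lies on chromosome 8, 30678061 to 30727999, minus strand, and the ratio of GSR to GCLC overlapped between groups, at 0.976 and 0.844 against 0.848 and 0.754.

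The regulators NFE2L2 and KEAP1 lay on opposite sides of 0 without passing the test. NFE2L2 had 2438 and 2732 scaled fragments in parental against 3061 and 2783 in resistant libraries. The upper parental and the lower resistant value were almost equal. The log2 fold change was 0.18 ± 0.09 (limma adjusted p = 0.16), with an interval of −0.03 to 0.38. It passed with libraries scaled to their totals (log2 fold change 0.27, adjusted p = 0.0306) and with quantile normalization (0.30, adjusted p = 0.0195), but not with TMM factors. NFE2L2 (ENSG00000116044, chromosome 2, 177227595 to 177392697, minus strand) overlaps AGPS on the other strand, and AGPS had 3847 and 4158 against 2461 and 2736 scaled fragments. The library kit kept strand, per the labels, but the strand setting of the counting is not given in the sources used here. Fragments from such partners therefore cannot be told apart. AC019080.1, which overlaps NFE2L2 on the same strand, had 57.8 and 59.3 against 129 and 122, and strand does not separate it from NFE2L2.

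KEAP1 had 2063 and 2562 in parental against 1753 and 2040 in resistant libraries. In both groups the library numbered 2 was the higher, and the resistant replicate 2 nearly reached parental replicate 1. The log2 fold change was −0.28 ± 0.12 (limma adjusted p = 0.11), with an interval of −0.57 to 0.0028. It passed without parental replicate 1 (−0.44, adjusted p = 0.0167) and in no other leave-out. The ratio of NFE2L2 to KEAP1 was 1.18 and 1.07 in parental against 1.75 and 1.36 in resistant libraries. The ratio did not overlap between groups, and the resistant libraries lay further from each other than the lower of them lay from the parental libraries.

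NQO1 and HMOX1, the targets most often read as reporters of NRF2 activity, did not pass the test. NQO1, which reduces quinones to hydroquinones, had 3439 and 3262 scaled fragments in parental against 2868 and 3121 in resistant libraries. Both resistant values lay below the parental ones. The log2 fold change was −0.16 ± 0.08 (limma adjusted p = 0.149), with an interval of −0.35 to 0.02. HMOX1, which degrades heme to biliverdin, iron and carbon monoxide, had 387 and 464 against 383 and 450. It was the 1 gene of the 10 whose groups overlapped, and the distance within each group exceeded that between the group means of 425 ± 54.1 and 417 ± 47.2 (SD, n = 2). Its log2 fold change was −0.03 ± 0.14 (limma adjusted p = 0.895), with an interval of −0.35 to 0.29, and its sign turned with the scaling, to 0.07 by library totals and 0.01 with TMM factors. The interval leaves room for a change of the size seen in GSR.

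Levels were compared between genes per kb of merged exons (GENCODE 29). TXN was highest, at 4908 scaled fragments per kb in parental and 4719 in resistant cells. TXNRD1 followed at 1596 and 2400, and NQO1 at 1030 and 920. In the middle were KEAP1 (615 and 504), SRXN1 (519 and 381) and NFE2L2 (432 and 489). At the lower end were GSR (296 and 237), GCLM (284 and 179), HMOX1 (177 and 173) and GCLC (142 and 129). Neighbours in this order were separate except GSR and GCLM in parental cells, and KEAP1 with NFE2L2 and GCLM with HMOX1 in resistant cells. NFE2L2 and SRXN1 exchanged the fifth and the sixth place between the groups. Merged exons overstate the length of genes with many transcripts, so the order across genes is approximate.

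**Figure D3:**
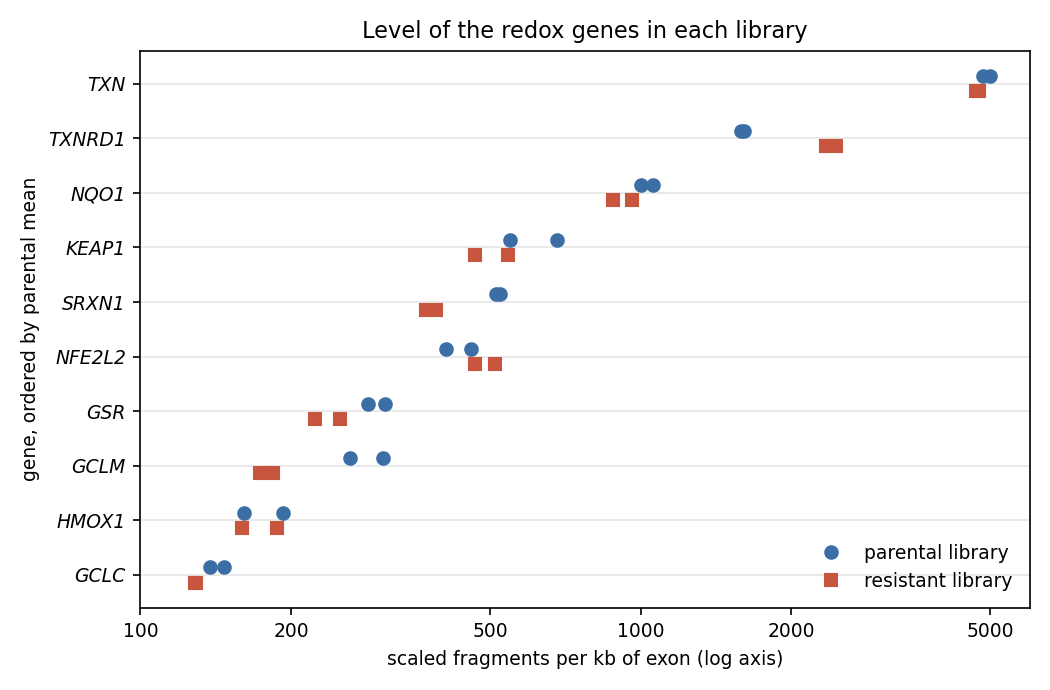
Scaled fragments per kb of exon (log axis) of each redox gene in each library, with circles for parental and squares for resistant libraries. TXN is highest at 4687 to 4991, and the resistant libraries lie to the right of the parental ones for TXNRD1 and NFE2L2.

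Among 15 regulators and partners of NRF2, 1 was higher, 2 were lower and 12 did not pass, with a median log2 fold change of −0.07. The share changed was 20.0%, beside 37.1% of all genes tested (16.2% higher and 20.9% lower). CUL3, the ligase scaffold that KEAP1 recruits, was 1.23-fold lower (3002 ± 94.1 to 2449 ± 48.3; limma adjusted p = 0.0169). PALB2, a BRCA2 partner that also binds KEAP1, was 1.31-fold lower (adjusted p = 0.0107). BTRC, the F-box protein of a KEAP1-independent route of NRF2 degradation, was 1.57-fold higher, with 1036 and 991 against 1569 and 1607 scaled fragments (adjusted p = 0.00077). The log2 fold change of BACH1, a repressor that competes with NRF2 at HMOX1, was −0.09 ± 0.11 (adjusted p = 0.591), which turned to 0.01 with either library totals or quantile normalization. SQSTM1, which sequesters KEAP1 and was chosen after its values were seen, had 483 and 1154 in parental against 527 and 859 in resistant libraries, a log2 fold change of −0.15 ± 0.57 (adjusted p = 0.871) that turned to 0.48 without parental replicate 2 and 0.20 without resistant replicate 1. The list had fewer calls without resistant replicate 1 or 2, as did all genes tested. CUL3 was not called without parental replicate 2 (adjusted p = 0.0615), resistant replicate 1 (0.112) or resistant replicate 2 (0.0677), and PALB2 was not called without resistant replicate 1 (0.0729) or 2 (0.0577).

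BTRC lies on chromosome 10, 101354033 to 101557321, in a stretch where most genes were higher. Of 95 other coding genes tested within 5 Mb on either side, 57.9% were called higher and 1.05% lower, against 15.9% and 23.8% of all 13313 coding genes tested. PRDX3, a mitochondrial peroxiredoxin further along the same arm, rose 1.29-fold (limma adjusted p = 0.00454), and 53.5% of its 43 coding neighbours were higher. Whether the rise of BTRC and PRDX3 is separate from that of their neighbours was not tested. Near TXNRD1 11.1% of 54 coding genes were higher and 31.5% were lower. Near SRXN1 17.6% of 51 were lower and 5.88% higher, and near GSR 26.5% of 34 were lower and 14.7% higher. The count of higher genes near TXNRD1 fell without resistant replicate 1, and that of lower genes near SRXN1 fell without either resistant replicate. Near GCLM the share of lower genes was larger, at 42.9% of 42, and 14.3% were higher. Without resistant replicate 1 or 2 the count of lower genes near GCLM fell too. Fewer of all genes tested were called in both of these fits, so a smaller count is not particular to these neighbours.

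The thioredoxin and peroxiredoxin list of 21 genes had 7 higher and 5 lower members, 57.1% in all beside 37.1% of all genes tested, with a median log2 fold change of 0.03. TXNIP, which binds reduced thioredoxin and inhibits it, rose most, 5.27-fold, from 2506 and 2622 to 14137 and 12922 scaled fragments (limma adjusted p = 3.94e-06). TXNIP over TXN went from 0.440 and 0.476 to 2.64 and 2.38. Of 62 other coding genes tested within 5 Mb on either side of TXNIP, 24.2% were higher and 9.68% were lower. Among all coding genes tested these shares were 15.9% and 23.8%. The sestrins, stress-induced proteins that take part in peroxide metabolism and restrain mTORC1, were higher, SESN2 2.18-fold and SESN1 1.96-fold (adjusted p = 0.000434 and 0.000262). MSRB3, which reduces oxidized methionine, fell 1.78-fold (adjusted p = 0.000276). PRDX1, the main cytosolic peroxiredoxin and a substrate that SRXN1 repairs, had 5102 and 5280 against 4546 and 5208. Its log2 fold change of −0.09 ± 0.09 (limma adjusted p = 0.434) was 0.002 with library totals and 0.05 with quantile normalization. The 12 calls of this list were fewer without parental replicate 2 or either resistant replicate, and fewer of all genes tested were called there too.

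SLC7A11, CTH and CHAC1 of the glutathione list were higher while GCLM was lower. Of 22 genes of synthesis, turnover and glutaredoxins, 9 rose and 5 fell, with a median of 0.18. The share changed was 63.6%, beside 37.1% of all genes tested. The 5 that fell were GLRX2, CHAC2, GLRX5, GGCT and LAP3, with log2 fold changes of −0.81, −0.79, −0.59, −0.32 and −0.25. SLC7A11, which imports cystine, rose 3.17-fold from 787 and 776 to 2811 and 2183 scaled fragments (limma adjusted p = 9.72e-05). CTH, which makes cysteine from cystathionine, rose 6.64-fold from 174 and 168 to 1419 and 920 (adjusted p = 0.000124). CHAC1, which cleaves glutathione, rose 4.65-fold (234 ± 71.5 to 1076 ± 183; adjusted p = 0.000597), and OPLAH, which returns 5-oxoproline to glutamate, rose 2.38-fold (adjusted p = 0.00109). SLC7A11 is a target of NRF2 and also of the amino acid stress factor ATF4, and CHAC1 and SESN2 are known ATF4 targets. Which factor acted on these genes was not tested. GSS, which completes glutathione and was chosen after its values were seen, rose 1.39-fold, from 1674 and 1650 to 2346 and 2286 (adjusted p = 0.00207). GCLM, GCLC and GSS, the genes of the 2 steps of synthesis, thus had log2 fold changes of −0.66, −0.14 and 0.48. Without resistant replicate 1 or resistant replicate 2 the 14 calls were fewer, as were those among all genes tested.

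Of 9 tested peroxide and superoxide enzymes, 2 were higher and 1 was lower, with a median of 0.22. The share of 33.3% is near the 37.1% of all genes tested. GPX4, which reduces lipid hydroperoxides with glutathione, rose 1.49-fold, from 1143 and 1217 to 1719 and 1805 scaled fragments (limma adjusted p = 0.00136). CAT, catalase, was 1.2-fold higher (adjusted p = 0.0378) and GPX8, a glutathione peroxidase of the endoplasmic reticulum, 1.24-fold lower (adjusted p = 0.0193). CAT was lost without each library in turn (adjusted p = 0.0767 to 0.196), and GPX8 without parental replicate 1 (0.0548) or resistant replicate 2 (0.158). The list had fewer calls without parental replicate 1 and without resistant replicate 2, as did all genes tested.

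Of 15 genes that supply or use NADPH, 4 rose and 2 fell, with a median of 0.22. The share of 40.0% is near the 37.1% of all genes tested. MTHFD2, of mitochondrial folate metabolism, rose 1.74-fold (limma adjusted p = 0.00021), while the cytosolic MTHFD1 fell 1.39-fold (adjusted p = 0.00148). In the pentose phosphate pathway TKT rose 1.26-fold (adjusted p = 0.00524) and PGD 1.28-fold (adjusted p = 0.0111). PGD was not called without resistant replicate 1 (adjusted p = 0.0646) or 2 (0.0595). The list had fewer calls without resistant replicate 2, as did all genes tested.

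Of 9 tested genes of the heme and iron branch, a list that does not hold HMOX1, 3 rose and 0 fell, with a median of 0.17. The share of 33.3% is near the 37.1% of all genes tested, and at an unadjusted p under 0.05 the count of lower genes was also 0. SLC48A1, which moves heme out of lysosomes, rose 3.09-fold from 635 and 711 to 2087 and 2073 scaled fragments (limma adjusted p = 3.69e-05). BLVRB, a biliverdin reductase, rose 1.60-fold (adjusted p = 0.00693), and FTL, the ferritin light chain, 1.18-fold (adjusted p = 0.0319). FTL was not called without parental replicate 1 (adjusted p = 0.0571), parental replicate 2 (0.119) or resistant replicate 2 (0.205). HMOX2, a heme oxygenase that most cells express, was listed at 0 to 1.70 in every library, so such low values are not read as absence of expression.

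Of 24 other reported NRF2 targets 18 passed the filter on low values, and 2 of these rose and 6 fell, 44.4% in all beside 37.1% of all genes tested, with a median of 0.01. Higher genes were 16.2% and lower genes 20.9% of all genes tested. CBR3 and CBR1, carbonyl reductases, fell 1.89-fold and 1.47-fold (limma adjusted p = 0.00231 and 0.00121). The exporter gene ABCC4 fell 1.34-fold (adjusted p = 0.00367), as did UGDH, which makes UDP-glucuronate, at 1.34-fold (adjusted p = 0.00793). The 2 genes that rose were PIR and AKR1C3. PIR had 162 and 178 scaled fragments in parental against 257 and 265 in resistant libraries (1.53-fold, limma adjusted p = 0.011). AKR1C3 had 8.95 and 5.74 against 19.6 and 19.5, and passed the filter on low values through its resistant libraries alone. AKR1C1, an aldo-keto reductase often high where NRF2 is active, had 5.69 and 3.82 in parental against 7.53 and 16.1 in resistant libraries and was too low to test. It belongs to a family of near-identical copies, among which fragments can be divided with error. UGDH was not called without resistant replicate 2 (adjusted p = 0.0585). The 8 calls were fewer without parental replicate 2, resistant replicate 1 or resistant replicate 2, as were those among all genes tested.

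**Figure D4:**
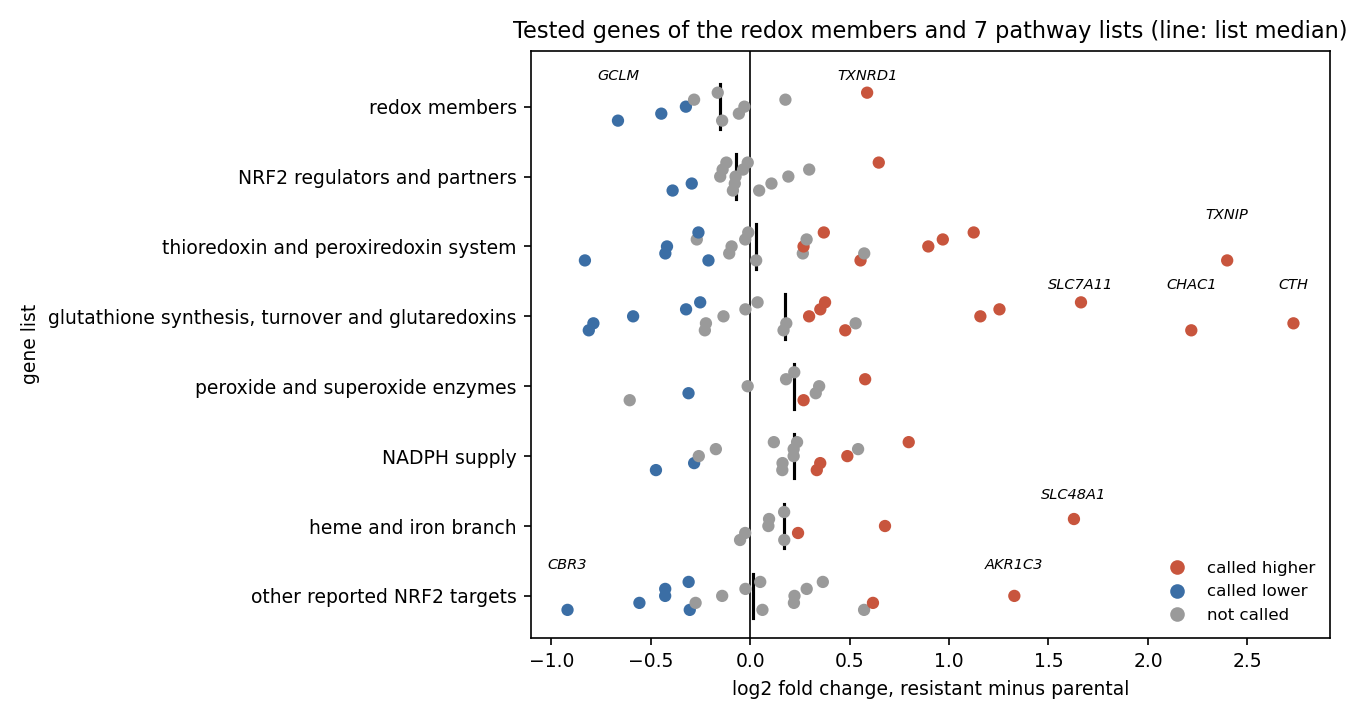
Log2 fold change of each tested gene of the redox set and of the 7 pathway lists, with points coloured by the limma call and a line at each list's median. TXNIP, CTH, CHAC1, SLC7A11 and SLC48A1 lie between 1.63 and 2.73, beyond TXNRD1 at 0.59.

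Across all 7 lists 109 genes were tested, 28 were higher and 21 lower, with a median of 0.11. This is 45.0% changed, beside 37.1% of all genes tested (16.2% higher and 20.9% lower). Of the 13313 coding genes tested, 15.9% were higher and 23.8% were lower. The genes nearest to GCLM in pattern, by Euclidean distance of centred log2 values over the 4 libraries, were STARD9 (0.0183), ZNF431 (0.0201) and XXYLT1 (0.0225).

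Totals of the libraries ran from 23163310 to 25832511 scaled fragments. With the deposited scaling 43.7% of the changed genes were higher, and with library totals 56.9%. Of 9 astroglial and glioma markers, GFAP, S100B and AQP4 were under 10 in every library, while VIM, NES and EGFR were abundant. The sum of this list was 95810 and 104400 in parental against 66320 and 74510 in resistant libraries. VIM alone had 74280 and 81177 against 47407 and 54488. NES and VIM were called lower and SLC1A3 was called higher. Summed markers of epithelial cells were 18590 and 20480 in parental against 35200 and 36870 in resistant libraries, with KRT8 and KRT18 called higher among 5. These keratins made up most of the sum, KRT8 with 5946 and 6814 against 12537 and 14168, KRT18 with 10899 and 12520 against 20823 and 21366. EPCAM, CDH1 and KRT19 were not called. Endothelial markers summed to 678 and 718 against 518 and 439, with CDH5 called lower among 4. PECAM1 among them had 202 and 130 against 208 and 178. Fibroblast markers summed to 9874 and 7856 against 10290 and 8540, with 0 of 5 called. Summed neuron markers were 138 and 160 against 254 and 290 (1 of 4 higher). The higher one, RBFOX3, had 57.8 and 66.9 against 190 and 187. Blood and microglia markers summed to 773 and 686 against 1124 and 1146 (1 of 5 higher). The higher one, CD68, had 520 and 500 against 887 and 966. Oligodendrocyte markers summed to 152 and 143 against 134 and 106 (0 of 4). The part of all these markers in the redox results was not tested.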

How the data were processed

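RNA sequencing libraries of 2 parental and 2 TMZ-resistant GBM8401 cultures were made with a strand-specific kit, per the labels. The submitters' processing notes name bcl2fastq, Trimmomatic 0.36, HISAT2 2.1.0, SAMtools 1.2, Cufflinks 2.2.1, Cuffdiff and build GRCh38.p10. No source used here gives the settings, the annotation release or the strand setting. The table deposited by the authors holds a signal per gene and library, fragments scaled between libraries to values that are not whole. No model of read counts was therefore used, counting error could not be computed, and totals of 23163310 to 25832511 scaled fragments are the only guide to depth.

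Groups came from the sample titles. Values were analysed as log2(value + 1), so fold changes of low genes are understated. Genes with a value of at least 10 in at least 2 libraries and a sum of at least 15 were tested (16132) with limma 3.58.1 in R 4.3.3, with group alone in the model, mean-variance trend, robust moderation and Benjamini-Hochberg adjustment over all genes tested. The procedure was tested on simulated data with independent noise and few changed genes. Those data had no shift of scaling and no effect of replicate number, so they do not bear on calls that depend on these. Of 58219 Ensembl IDs, 57881 were found in GENCODE 29, which gave coordinates, merged exon lengths and neighbours. Promoter sequences are from RefSeq (GRCh38.p14).

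Alternatives covered the pseudocount (0.5 and 4), low-value filters, scaling (library totals, TMM factors computed on the deposited values, quantiles), moderation, a replicate block, a test against a fold change of 1.5, and leaving out each library. The text names all 10 redox genes, up to 4 called genes with the smallest adjusted p per pathway list, 7 preset pathway genes (1 is not reported here) and the 3 coding genes nearest to GCLM in pattern. The redox genes and lists were chosen with earlier results of these data known. PRDX3, GSS, SQSTM1, HMOX2 and genes that overlap or neighbour the redox genes were chosen after their values were seen. So were PIR, AKR1C3 and the lower genes of the glutathione list.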

Additional observations from a re-analysis of the deposited data

How the results depend on the processing

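TXNRD1, GCLM and SRXN1 kept their limma calls in 13 of 14 alternatives, all but the test against a fold change of 1.5, which no redox gene passed. The number of genes changed, 5991, was 3686 without trend and robust moderation, 601 against a fold change of 1.5, and 3593 to 5476 with 1 library left out, lowest without resistant replicate 1 (3593) and resistant replicate 2 (3842). Scaling moved the median log2 fold change of all genes from −0.02 to 0.08 by library totals. The 4 redox calls became 0 against a fold change of 1.5 (limma treat; 0 higher, 0 lower), a stricter criterion by construction. The 1 higher redox gene became 2 with library totals and 2 with quantile normalization.

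Titles give the groups shared replicate numbers, but no label ties a number to a common day or culture, and there are only 2 pairs. Deviations of same-numbered libraries from their group means correlated at 0.265 across genes. With the replicate block, which leaves 1 residual degree of freedom, 7 redox genes were called, 2 higher and 5 lower, and 8624 genes in all. The added calls were KEAP1 (adjusted p = 0.000182), NFE2L2 (0.0192) and NQO1 (0.0311). The block gave 5 regulators, 5 peroxide and superoxide enzymes, 11 NADPH genes and 13 other targets.

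List counts were fewer without trend and robust moderation: 1 regulator, 5 thioredoxin genes, 9 glutathione genes, 1 peroxide enzyme, 2 NADPH genes, 1 heme gene and 5 other targets. The share called of all genes tested fell as well, from 37.1% to 22.8%. Against a fold change of 1.5 the list counts were 0, 2, 3, 0, 0, 1 and 0 in the same order, beside 3.73% of all genes tested. With 1 library left out they were 1 to 4, 6 to 9, 9 to 13, 1 to 3, 3 to 8, 2 to 3 and 3 to 8. TMM factors gave 5 peroxide enzymes. The cause of these differences was not tested.

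Signs turned for HMOX1 (0.066 with library totals, 0.014 with TMM factors, −0.158 to 0.101 with 1 library left out), TXN (0.039 with library totals, 0.084 with quantiles), BACH1 (0.009 with library totals, 0.014 with quantiles, −0.236 to 0.063 with 1 library left out), PRDX1 (0.002 with library totals, 0.049 with quantiles, −0.191 to 0.005 with 1 library left out) and SQSTM1 (−0.778 to 0.477 with 1 library left out). The cause was not tested. With 2 libraries per group the sizes of these changes are imprecise, and a library left alone in its group is assumed to vary like the others.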
